A study of Mus musculus with 4 samples.

Results

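Cyclins, cyclin-dependent kinases (CDKs) and the proteins that inhibit or bind these kinases were examined as a family of 55 genes among the 22073 genes of a testis expression table. The members are the genes whose mouse symbol begins with a cyclin letter followed by a digit, with Cdk or Cdkn followed by a digit, or is Ccnc, Ccnf or Ccnh, except the ligase gene Ccnb1ip1. Poly(A) RNA came from the right testis of adult KM mice, an outbred strain. The hemicastrated group (2 libraries) had lost the left testis before puberty, and the control group (2 libraries) had a sham operation at that time. Both groups carry no other genetic or drug treatment in the labels, which give no age in days. The design text counts 4 mice while the protocol text speaks of 3 per group, and the 4 libraries are treated as separate mice. The comparison asks which of these genes differ in the adult testis that is left after the other was removed. Values are FPKM, fragments scaled to transcript length and to the mapped fragments of a library, so levels of different genes can be compared per length.

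A CDK is inactive until a cyclin binds it. The cyclins A, B and E and their kinases CDK1 and CDK2 drive DNA replication, mitosis and meiosis, while the D cyclins with CDK4 and CDK6 release the brake of the retinoblastoma protein at the start of the cycle. Inhibitors of the CIP/KIP class block many cyclin-CDK complexes, and those of the INK4 class block CDK4 and CDK6. Other members work in transcription, and the adult testis runs mitotic, meiotic and postmeiotic cells side by side, with a germ cell A cyclin, Ccna1, that male mice need for meiosis.

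The libraries carried the markers of testis throughout. Summed FPKM of 10 elongating spermatid genes was 26630 and 26700 in hemicastrated and 24540 and 25650 in control libraries, and that of 9 Leydig cell genes 1936 and 1830 in hemicastrated and 1668 and 1560 in control libraries. Insl3 made up most of the Leydig cell sums, at 1609 and 1484 FPKM in hemicastrated and 1272 and 1232 FPKM in control libraries. Over the Leydig cell list 4 log2 fold changes were above and 5 below 0, with a median of -0.01. Among lists of other tissue, the sums of epididymis, duct epithelium and smooth muscle markers were lower in both hemicastrated libraries. Sums of the macrophage, lymphocyte, endothelium and erythroid lists overlapped between the groups, with 0 genes called, though the lymphocyte and endothelium lists had only 1 tested gene each. The epididymis list summed to 1.82 and 2.17 FPKM in hemicastrated and to 574 and 822 FPKM in control libraries, with 3 of its 4 tested genes called lower and 4 of its 13 genes listed at 0 in all libraries. Most of the control sums came from Crisp1, a secreted protein of the epididymis, at 0.0453 and 0.0391 FPKM in hemicastrated and 544.9 and 786.1 FPKM in control libraries, while Rnase10 of the same list had a log2 fold change of 0.007. The duct epithelium list summed to 12.7 and 10.8 FPKM in hemicastrated and 26.7 and 27.3 FPKM in control libraries (3 of 5 tested genes called lower), and the smooth muscle list to 220 and 243 FPKM in hemicastrated and 326 and 297 FPKM in control libraries (5 of 10 called lower). Actg2, with a mean of 206 FPKM and a log2 fold change of -0.14, made up most of the smooth muscle sums. All 10 log2 fold changes of the smooth muscle list were below 0, with a median of -1.02. Read depth is unknown, since FPKM hold no counts. In whole-testis RNA, fewer cells of a type and less RNA per cell cannot be told apart.

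The 3 most abundant members in every group were Cdkn3, Ccna1 and Ccnb2. Their promoters are shown with that of Ccnb1, the weakly expressed paralogue of Ccnb2, because mitotic and meiotic cyclin genes are known for promoters built on CCAAT boxes and on the CHR element (TTTGAA). The sequences are RefSeq's for GRCm38.p6, 250 bases that end just before the start of transcription, written 5′ to 3′ on the gene's strand. Capitals mark matches, on either strand, to the box CCAAT, to the CHR letters given above and to an E2F-like pattern (TTTNNCGC), and no capitalised matches overlap.
Cdkn3, chr14:46760291-46760540, plus strand: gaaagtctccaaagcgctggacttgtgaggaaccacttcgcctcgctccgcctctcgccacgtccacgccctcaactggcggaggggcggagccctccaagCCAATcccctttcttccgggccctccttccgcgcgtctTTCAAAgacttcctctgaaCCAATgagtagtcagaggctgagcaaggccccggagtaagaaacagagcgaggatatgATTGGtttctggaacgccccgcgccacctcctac
Ccna1, chr3:55055056-55055305, minus strand: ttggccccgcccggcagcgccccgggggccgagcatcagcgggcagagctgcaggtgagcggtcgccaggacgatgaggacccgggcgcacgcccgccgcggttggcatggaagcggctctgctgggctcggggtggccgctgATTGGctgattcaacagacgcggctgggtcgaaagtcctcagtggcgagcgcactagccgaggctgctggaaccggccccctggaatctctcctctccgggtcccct
Ccnb2, chr9:70421555-70421804, minus strand: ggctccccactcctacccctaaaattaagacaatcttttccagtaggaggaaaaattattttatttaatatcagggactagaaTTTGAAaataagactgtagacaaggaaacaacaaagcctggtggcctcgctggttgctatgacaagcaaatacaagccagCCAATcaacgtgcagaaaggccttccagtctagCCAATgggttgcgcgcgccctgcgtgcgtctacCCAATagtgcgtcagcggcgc
Ccnb1, chr13:100786487-100786736, minus strand: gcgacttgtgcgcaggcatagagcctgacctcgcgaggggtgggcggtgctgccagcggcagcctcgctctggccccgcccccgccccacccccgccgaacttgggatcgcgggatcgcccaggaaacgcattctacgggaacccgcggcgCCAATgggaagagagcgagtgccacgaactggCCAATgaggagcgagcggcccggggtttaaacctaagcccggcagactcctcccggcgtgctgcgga

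Cdkn3 and Ccnb2 each held 3 CCAAT matches and 1 TTTGAA match, Ccnb1 held 2 CCAAT matches and Ccna1 held 1. In Ccnb2 the CCAAT matches began 87, 54 and 21 bases before the start. The MYB core AACNG, which the capitals leave out, was found 3 times in Ccna1, 2 times in Cdkn3, 1 time in Ccnb1 and 0 times in Ccnb2. CCAAT stood in 33.8% of the 32851 promoter windows of that length in the table, TTTGAA in 16.0%, TTTNNCGC in 4.3% and AACNG in 74.2%. Of the 55 members, 45 had an entry, with 51 windows in all. CCAAT stood in 24 of these 51 windows (47.1%), TTTGAA in 7 (13.7%), TTTNNCGC in 5 (9.8%) and AACNG in 38 (74.5%). These matches describe letters in a window, and the absence of one says nothing of a factor.

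Of the 55 members, 50 averaged 1 FPKM or more across the libraries and were tested, and the 5 others (Ccnb3, Cdk10, Cdk15, Cdk5r1 and Cdk5r2) are given as values below. None passed the test between the groups: limma with Benjamini-Hochberg adjustment over 11343 genes called 0 members lower and 0 higher at an adjusted p under 0.05, against 1.19% of all tested genes called lower and 0.106% called higher. The smallest adjusted p of a member was 0.191, that of Ccnd2 (limma). At an unadjusted p under 0.05 there were 2 members, Ccnd2 and Cdk2ap2, which is 4.00% of those tested, against 10.5% of all tested genes. The libraries of the groups did not overlap in 16 members, 11 of them lower and 5 higher in hemicastrated mice, which is 32.0% of the tested members. Of all tested genes, 41.2% did not overlap, 24.8% being lower and 16.3% higher in hemicastrated mice. The median log2 fold change (hemicastrated minus control, taken on log2(FPKM + 1), which understates changes of low genes) was 0.003 over the members and -0.026 over all tested genes, and the median of its absolute size was 0.104 and 0.116 over the same sets. An absolute log2 fold change over 0.3 was reached by 3 members (6%) and by 14.4% of all tested genes. In 33 of the 50 members the 95% interval of the log2 fold change lay within 0.5 of 0. The intervals of the other members reached past 0.5 on 1 side or both. This bound holds only on the log2(FPKM + 1) scale. For low members such as Cdk6 (mean 1.27 FPKM, interval -0.43 to 0.24) it does not exclude a larger change in FPKM.

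**Figure D1:**
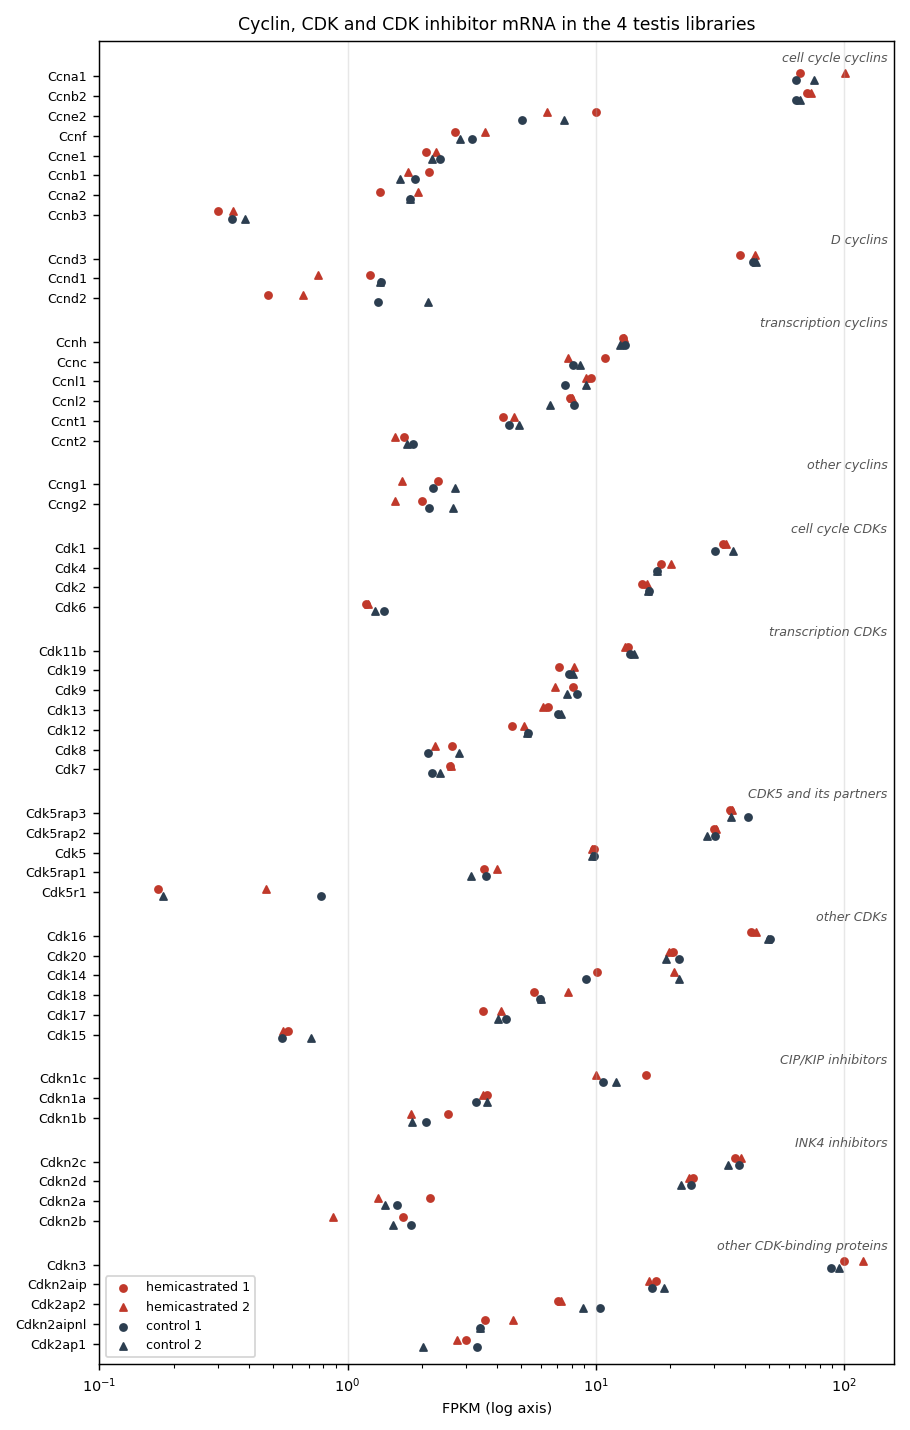
FPKM (log axis) of the 53 members with a value above 0, grouped by role, with hemicastrated libraries in red above control libraries in dark blue and with circles for replicate 1 and triangles for replicate 2. Levels span a wide range within some classes, from 1.71 to 77.1 FPKM among the tested cell cycle cyclins, and a narrow one in others, from 2.09 to 2.23 FPKM among the other cyclins, whereas the 4 libraries of a gene mostly lie close together.

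Among the cyclins of the cell cycle, the levels were dominated by the germ cell cyclin Ccna1 and by Ccnb2. Ccna1 (ENSMUSG00000027793, GRCm38 chromosome 3, 55045469 to 55055501) was at 66.7 and 101.4 FPKM in hemicastrated and at 64.1 and 76.1 FPKM in control libraries. Hemicastrated 2 was the highest of the 4, hemicastrated 1 lay between the controls, and the log2 fold change was 0.23 (SE 0.20, 95% interval -0.25 to 0.71, limma adjusted p = 0.748). Ccnb2 (ENSMUSG00000032218, chromosome 9, 70407692 to 70421547), a B cyclin and partner of CDK1, was at 71.0 and 74.0 FPKM in hemicastrated and at 64.2 and 66.4 FPKM in control libraries. Both hemicastrated values were above both controls, by a log2 fold change of 0.15 (SE 0.08, interval -0.05 to 0.35), and the test was not passed (limma adjusted p = 0.604). Of 12 tested spermatocyte markers, 0 were called and 6 had an unadjusted p under 0.05 in limma. Their median log2 fold change was 0.21, and they summed to 4403 and 4795 FPKM in hemicastrated and 4397 and 4405 FPKM in control libraries. Their part in the Ccna1 and Ccnb2 values was not tested.

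The other A and B cyclins were far lower. Ccna2, the A cyclin of mitotic cells, was at 1.35 and 1.92 FPKM in hemicastrated and at 1.78 and 1.79 FPKM in control libraries, and Ccnb1, the main mitotic B cyclin, at 2.13 and 1.75 FPKM in hemicastrated and 1.87 and 1.62 FPKM in control libraries. Their libraries overlapped between the groups. Ccnb1 has 4 pseudogene copies of at least 95% identity elsewhere in the genome, and reads shared with these make its value uncertain. Ccnb3, a further B cyclin known in mouse from meiosis, stayed under the filter at 0.301 and 0.346 FPKM in hemicastrated and 0.341 and 0.385 FPKM in control libraries. The E cyclins activate CDK2: Ccne2 was at 10.1 and 6.38 FPKM in hemicastrated and 5.04 and 7.45 FPKM in control libraries, the largest positive log2 fold change of any tested member (0.34, SE 0.24, interval -0.25 to 0.92, limma adjusted p = 0.696). Its libraries interleave, with hemicastrated 1 highest and control 1 lowest, and the log2 fold change was 0.05 without hemicastrated 1 and 0.63 without hemicastrated 2. Without hemicastrated 1 that of Ccna1, at 0.53, was larger. Ccne2 shares 17.4% of its exonic bases with Ints8 on the opposite strand. Ccne1 lay at 2.08 and 2.27 FPKM in hemicastrated and 2.35 and 2.19 FPKM in control libraries, and Ccnf, an F-box protein that marks substrates for degradation, at 2.72 and 3.59 FPKM in hemicastrated and 3.17 and 2.85 FPKM in control libraries.

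All 3 D cyclins had a negative log2 fold change, and none passed the test. Ccnd3 was the abundant one, at 38.2 and 44.0 FPKM in hemicastrated and 42.9 and 44.4 FPKM in control libraries, which overlap (log2 fold change -0.09, SE 0.10, and 0.01 without hemicastrated 1). The pseudogene Ccnd3-ps matches 41.7% of the Ccnd3 transcript at 96.3% identity, and shared reads make the Ccnd3 value uncertain. Ccnd1 was at 1.24 and 0.761 FPKM in hemicastrated and 1.36 and 1.35 FPKM in control libraries (log2 fold change -0.25, SE 0.17, limma adjusted p = 0.681). Both of its hemicastrated values lay under both controls, the first of them close to the controls, and the log2 fold change was -0.42 without hemicastrated 1 and -0.08 without hemicastrated 2. Ccnd1 shares 23.4% of its exonic bases with LTO1 on the opposite strand, and the protocol describes no step that keeps the strand apart.

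Ccnd2 (ENSMUSG00000000184, chromosome 6, 127125162 to 127152193), the D cyclin of dividing spermatogonia in mouse and of many somatic cells, showed the largest difference in the family. It was at 0.479 and 0.663 FPKM in hemicastrated and at 1.33 and 2.10 FPKM in control libraries. Both hemicastrated values were under both controls, and the hemicastrated mean was 0.333 of the control mean. Both hemicastrated values were also under 1 FPKM, so that Ccnd2, with a mean of 1.14 FPKM, passed the filter only through the control libraries. Its test therefore rests on a gene kept by the group in which it was high. The log2 fold change was -0.78 (SE 0.19, interval -1.23 to -0.32, unadjusted p = 0.00546, adjusted p = 0.191, limma), and a pseudocount of 0.1 in place of 1 moved it to -1.42 (adjusted p = 0.195). The epididymis, duct epithelium and smooth muscle lists were low in the same libraries, with the sums given above, and their part in the Ccnd2 values was not tested. Of 9 tested genes of premeiotic germ cells, 0 were called. Their log2 fold changes (3 above and 6 below 0) had a median of -0.05. The summed levels of that list were 396 and 389 FPKM in hemicastrated and 387 and 372 FPKM in control libraries. Dmrtb1 and Ddx4, with means of 235 and 108 FPKM, made up most of these sums. The sums therefore say little of low genes of the list such as Gfra1 and Kit, with means of 1.275 and 2.21 FPKM. Exons of 2 genes on the opposite strand, 9330179D12Rik and Gm43126, cover 3.9% and 4.0% of the exonic bases of Ccnd2.

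**Figure D2:**
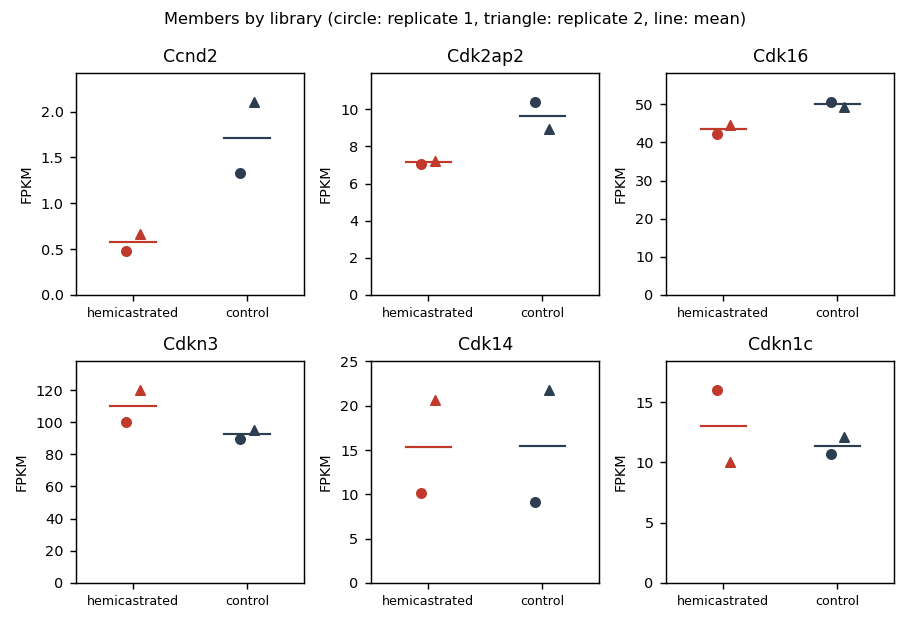
FPKM of 6 members in each library (circles for replicate 1, triangles for replicate 2, lines for group means), hemicastrated left of control, on axes that start at 0. Ccnd2, Cdk2ap2 and Cdk16 are lower in both hemicastrated libraries, and Cdkn3 is higher in both. Cdk14 differs more between the replicates of each group than between the group means, and Cdkn1c does so in the hemicastrated group only. The 6 genes were chosen after their values were seen.

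None of the 4 kinases of the cell cycle passed the test. Cdk1, the kinase of mitosis and meiotic division, was at 32.5 and 33.4 FPKM in hemicastrated and 30.2 and 35.7 FPKM in control libraries, with both hemicastrated values between the controls (log2 fold change 0.01, interval -0.26 to 0.27). Cdk2, which mouse spermatocytes need for meiosis, was at 15.3 and 16.1 FPKM in hemicastrated and 16.4 and 16.3 FPKM in control libraries (log2 fold change -0.05, interval -0.29 to 0.18). Cdk4 was at 18.4 and 20.1 FPKM in hemicastrated and 17.6 and 17.7 FPKM in control libraries (log2 fold change 0.11, interval -0.13 to 0.36). Cdk6, the other partner of the D cyclins, was at 1.18 and 1.21 FPKM in hemicastrated and 1.41 and 1.29 FPKM in control libraries (log2 fold change -0.10, interval -0.43 to 0.24). The libraries of the groups did not overlap in Cdk2, Cdk4 and Cdk6, and their differences were within the error of the fit (limma adjusted p from 0.758 to 0.894). Cdk4 shares 19.7% of its exonic bases with Tspan31 on the opposite strand.

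The INK4 and CIP/KIP inhibitors fell into an abundant and a scarce set, and none of these 7 passed the test. Of the INK4 inhibitors, Cdkn2c was at 36.3 and 38.6 FPKM in hemicastrated and 37.7 and 34.3 FPKM in control libraries, and Cdkn2d at 24.6 and 23.7 FPKM in hemicastrated and 24.3 and 22.01 FPKM in control libraries. Both are expressed in meiotic and later germ cells of the mouse, and their groups overlapped. Cdkn2a, a locus that encodes an INK4 inhibitor and the p53 regulator ARF, was at 2.14 and 1.33 FPKM in hemicastrated and 1.58 and 1.41 FPKM in control libraries. Its neighbour Cdkn2b was at 1.68 and 0.877 FPKM in hemicastrated and 1.81 and 1.53 FPKM in control libraries (log2 fold change -0.25, interval -0.74 to 0.24). In both of these scarce genes hemicastrated 1 lay well above hemicastrated 2.

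Of the CIP/KIP inhibitors, the imprinted Cdkn1c led. It was at 16.0 and 10.03 FPKM in hemicastrated and 10.7 and 12.1 FPKM in control libraries, so that the hemicastrated libraries were both the highest and the lowest of the 4 (log2 fold change 0.15, interval -0.36 to 0.65). Without hemicastrated 1 the log2 fold change was -0.17 and without hemicastrated 2 it was 0.46. Cdkn1c shares 30.7% of its exonic bases with Gm44732 on the opposite strand. Cdkn1a, a target of p53, was at 3.66 and 3.53 FPKM in hemicastrated and 3.31 and 3.64 FPKM in control libraries, and Cdkn1b at 2.55 and 1.81 FPKM in hemicastrated and 2.06 and 1.82 FPKM in control libraries.

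Cdkn3 (ENSMUSG00000037628, chromosome 14, 46760541 to 46771669) encodes a phosphatase that removes the activating phosphate of CDK2 and was the most abundant member in each library. It ranked between 599 and 824 among the 22073 genes of each library. Its level was 100.4 and 120.0 FPKM in hemicastrated and 89.2 and 95.4 FPKM in control libraries, both hemicastrated values above both controls (log2 fold change 0.25, SE 0.11, interval -0.02 to 0.51, limma adjusted p = 0.503). It was 0.38 without hemicastrated 1 and 0.12 without hemicastrated 2. The 10 round spermatid markers had positive log2 fold changes in 10 of 10 tested genes. In limma 4 of the 10 had an unadjusted p under 0.05, against 10.5% of all tested genes, and 0 were called. The markers summed to 1080 and 1096 FPKM in hemicastrated and 961 and 956 FPKM in control libraries. Their part in the Cdkn3 values was not tested. Cdk2ap2, which binds CDK2 and belongs to a chromatin remodelling complex, was at 7.07 and 7.24 FPKM in hemicastrated and 10.4 and 8.92 FPKM in control libraries. Both hemicastrated values were lower, with a log2 fold change of -0.38 (SE 0.12, interval -0.68 to -0.09, unadjusted p = 0.0193, adjusted p = 0.332, limma). Its relative Cdk2ap1 was at 3.01 and 2.77 FPKM in hemicastrated and 3.33 and 2.01 FPKM in control libraries, and the protein-coding copy Gm12184 matches 98.8% of its transcript at 99.4% identity. Cdkn2aip, a regulator of ARF and p53, was at 17.5 and 16.5 FPKM in hemicastrated and 16.9 and 18.9 FPKM in control libraries. Cdkn2aipnl was at 3.57 and 4.63 FPKM in hemicastrated and 3.41 and 3.43 FPKM in control libraries.

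**Figure D3:**
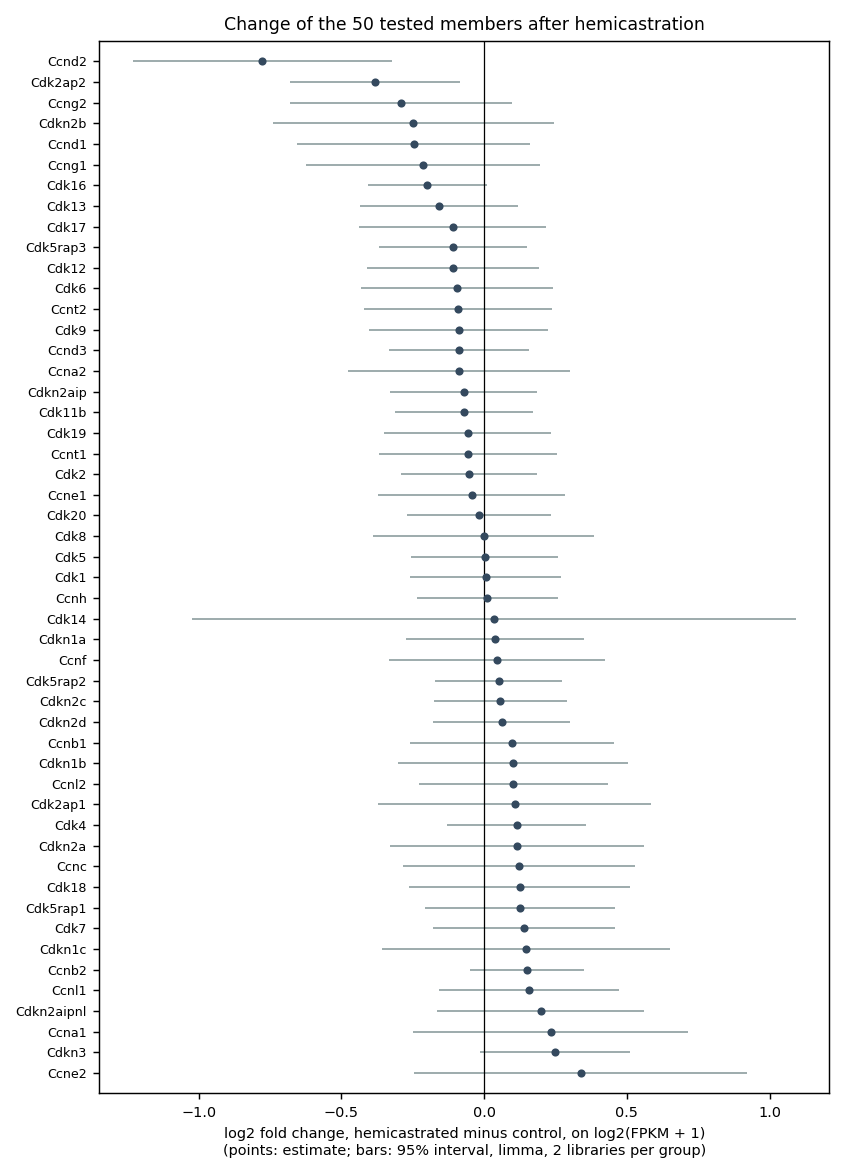
Log2 fold change of the 50 tested members, hemicastrated minus control on log2(FPKM + 1), with 95% intervals from limma. Estimates run from -0.78 (Ccnd2) to 0.34 (Ccne2), the interval excludes 0 in Ccnd2 and Cdk2ap2 alone before adjustment for the number of genes, and the interval of Cdk14 is the widest.

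The kinases outside the cell cycle included some of the highest values of the family. Cdk16, which pairs with cyclin Y and which male mice need for normal sperm, was at 42.3 and 44.5 FPKM in hemicastrated and 50.6 and 49.4 FPKM in control libraries. The groups did not overlap (log2 fold change -0.20, SE 0.09, interval -0.41 to 0.01, limma adjusted p = 0.494). Cdk20, a kinase of ciliary and cell cycle signalling, was at 20.5 and 19.8 FPKM in hemicastrated and 21.6 and 19.2 FPKM in control libraries. Cdk18 and Cdk17 had mean levels of 6.33 and 4.02 FPKM over the 4 libraries. Cdk15 was under the filter, between 0.545 and 0.713 FPKM, and Cdk10 was listed at 0 in all 4 libraries. A 0 in such a table can be a failed estimate, and Cdk10 shares exonic bases with Spata2l on the opposite strand.

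Cdk14, a relative of Cdk16 that also binds cyclin Y, varied between the mice of each group. It was at 10.2 and 20.6 FPKM in hemicastrated and at 9.10 and 21.8 FPKM in control libraries. The second library of each group was 2.03 times the first in hemicastrated and 2.39 times the first in control mice, and the group means differed by a log2 fold change of 0.03 with an interval of -1.03 to 1.09. Cdk14 was the only tested member 2-fold or more apart between the replicates of either group. Among all tested genes above 0 in every library, 56 were at least 2-fold apart between the replicates in both groups, and 32 of these were higher in libraries of the same number.

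Kinases and cyclins of transcription lay in a narrow band, between 1.71 and 13.7 FPKM on average. Of 7 tested kinases, 0 were called, and log2 fold changes ran from -0.16 to 0.14, with 6 of them below 0 (5 under quantile normalization). Cdk11b, a kinase of splicing and transcription, was at 13.5 and 13.1 FPKM in hemicastrated and 13.8 and 14.2 FPKM in control libraries. Cdk9, which with the T cyclins releases paused RNA polymerase II, was at 8.12 and 6.87 FPKM in hemicastrated and 8.41 and 7.65 FPKM in control libraries, and Cdk19, a kinase of the Mediator complex, at 7.11 and 8.14 FPKM in hemicastrated and 7.82 and 8.11 FPKM in control libraries. Cdk13 was at 6.43 and 6.13 FPKM in hemicastrated and 7.02 and 7.24 FPKM in control libraries, without overlap (log2 fold change -0.16, interval -0.44 to 0.12). Cdk12, Cdk8 and Cdk7 averaged 5.10, 2.45 and 2.44 FPKM over the 4 libraries. The pseudogene Gm7107 matches 24.1% of the Cdk8 transcript at 98.3% identity.

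Of 6 tested transcription cyclins, 0 were called, and log2 fold changes ran from -0.09 to 0.16, with 4 of them above 0 (6 under quantile normalization). Ccnh, the partner of Cdk7 in the general transcription factor TFIIH, was at 12.9 and 13.0 FPKM in hemicastrated and 13.2 and 12.5 FPKM in control libraries, well above Cdk7 in each library. Ccnc, the Mediator cyclin, was at 10.9 and 7.73 FPKM in hemicastrated and 8.11 and 8.64 FPKM in control libraries, and Ccnl1, a cyclin of splicing, at 9.61 and 9.11 FPKM in hemicastrated and 7.51 and 9.15 FPKM in control libraries. Ccnl2, Ccnt1 and Ccnt2 averaged 7.67, 4.58 and 1.71 FPKM. The stress-linked cyclins Ccng1 and Ccng2 had negative log2 fold changes of -0.21 and -0.29. Ccng2 was at 1.999 and 1.56 FPKM in hemicastrated and 2.13 and 2.66 FPKM in control libraries, without overlap (limma adjusted p = 0.604), and Ccng1 at 2.32 and 1.66 FPKM in hemicastrated and 2.21 and 2.71 FPKM in control libraries, with overlap.

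Cdk5, an atypical kinase activated by non-cyclin partners, was at 9.88 and 9.63 FPKM in hemicastrated and 9.86 and 9.63 FPKM in control libraries, the log2 fold change closest to 0 among the tested members (0.001, interval -0.26 to 0.26). Of its activators, Cdk5r1 lay between 0.172 and 0.779 FPKM, and Cdk5r2 was listed at 0 in all 4 libraries, which, as for Cdk10, can be a failed estimate. Of the proteins named for binding these activators, 2 were above Cdk5 in every library and Cdk5rap1 was below it. Cdk5rap3, of the protein-modifying UFM1 pathway, was at 35.0 and 35.3 FPKM in hemicastrated and 41.3 and 35.0 FPKM in control libraries, and Cdk5rap2, a centrosome protein, at 30.0 and 30.5 FPKM in hemicastrated and 30.3 and 28.2 FPKM in control libraries. Cdk5rap1, a mitochondrial tRNA-modifying enzyme, averaged 3.58 FPKM.

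Ratios of paralogues within a library do not depend on the scaling between libraries. The 13 pairs were chosen after the values were seen. The member that was higher in all 4 libraries is named first, so ratios above 1 follow from this order. Ccna1 stood at 49.3 and 52.7 times Ccna2 in hemicastrated and at 36.0 and 42.5 times in control libraries. Ccnb2 stood at 33.4 and 42.2 times Ccnb1 in hemicastrated and 34.4 and 40.9 times in control libraries. Ccnd3 stood at 79.8 and 66.3 times Ccnd2 in hemicastrated and 32.3 and 21.1 times in control libraries, the widest gap between groups of any pair, with a difference of 1.48 in the log2 ratio. Cdk4 stood at 15.5 and 16.6 times Cdk6 in hemicastrated and 12.5 and 13.8 times in control libraries.

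**Figure D4:**
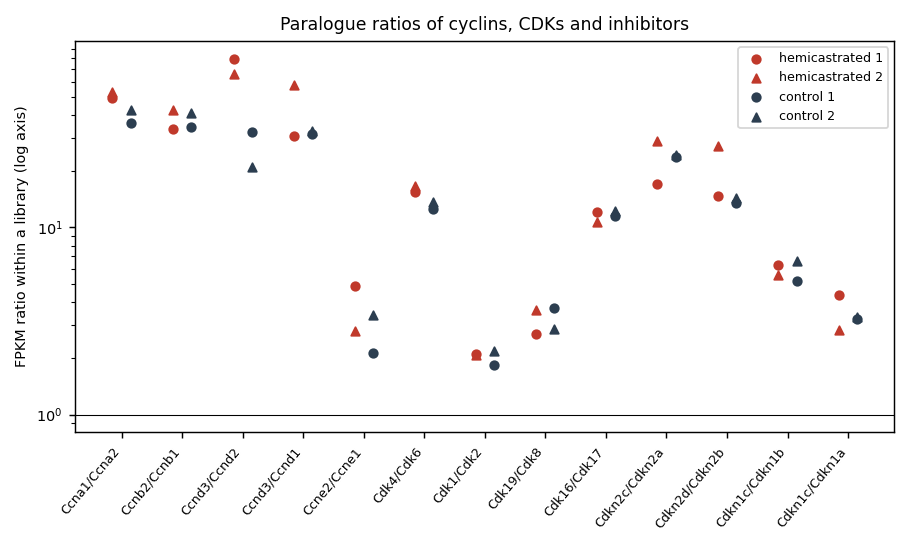
FPKM ratio of 13 paralogue pairs within each library (log axis), hemicastrated libraries in red left of control libraries in dark blue, circles for replicate 1 and triangles for replicate 2. All ratios lie above 1, since the higher member is named first. The 4 pairs whose groups do not overlap (Ccna1/Ccna2, Ccnd3/Ccnd2, Cdk4/Cdk6 and Cdkn2d/Cdkn2b) are higher in hemicastrated libraries.

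In 4 of the 13 pairs (30.8%) the ratio did not overlap between the groups, and in all 4 it was higher in hemicastrated mice. Among single tested genes 41.2% did not overlap, which is an unlike measure, and no background share was computed for ratios. Some pairs also share a member, such as Ccnd3 or Cdkn1c. With 2 libraries against 2, an exact two-sided permutation test cannot give a p under 0.333, and no other test was run on the ratios. The inhibitor ratios mostly overlapped: Cdkn2c stood at 17.0 and 29.1 times Cdkn2a in hemicastrated and 23.8 and 24.3 times in control libraries, and Cdkn1c at 6.29 and 5.55 times Cdkn1b in hemicastrated and 5.20 and 6.63 times in control libraries. The exception was Cdkn2d to Cdkn2b, at 14.7 and 27.1 in hemicastrated and 13.4 and 14.4 in control libraries, where hemicastrated 2 stands apart and hemicastrated 1 is close to the controls.

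By class, the summed FPKM of the 8 cell cycle cyclins was 156 and 192 in hemicastrated and 143 and 159 in control libraries, which made up 21.1% and 23.7% of the family's sum in hemicastrated and 19.5% and 20.98% in control libraries. The 4 INK4 inhibitors summed to 64.8 and 64.5 FPKM in hemicastrated and 65.4 and 59.3 FPKM in control libraries, and the 4 cell cycle kinases to 67.4 and 70.8 FPKM in hemicastrated and 65.7 and 71.0 FPKM in control libraries. The whole family summed to 740 and 808 FPKM in hemicastrated and 731 and 757 FPKM in control libraries. In these 4 sums the groups overlapped, whereas the share of the cell cycle cyclins was slightly higher in both hemicastrated libraries. Of the 11 classes, 5 had summed FPKM without overlap, 3 of them lower and 2 higher in hemicastrated mice. Among single tested genes 41.2% did not overlap, and no such background was computed for class sums or shares. The D cyclins were lower, at 39.9 and 45.4 FPKM in hemicastrated and 45.6 and 47.8 FPKM in control libraries. Here hemicastrated 2 lay close to control 1, and Ccnd3, most of this sum, overlapped between the groups. The transcription kinases were lower as well, at 44.9 and 44.3 FPKM in hemicastrated and 46.7 and 47.7 FPKM in control libraries. The other cyclins, Ccng1 and Ccng2, summed to 4.32 and 3.22 FPKM in hemicastrated and 4.34 and 5.37 FPKM in control libraries. Here hemicastrated 1 lay close to control 1. The 2 higher classes were the other CDK-binding proteins and the transcription cyclins. The other CDK-binding proteins, led by Cdkn3, were at 131.6 and 151.1 FPKM in hemicastrated and 123.3 and 128.7 FPKM in control libraries. The transcription cyclins were at 47.2 and 44.1 FPKM in hemicastrated and 43.3 and 43.5 FPKM in control libraries. Here hemicastrated 2 lay close to the controls. Of the 6 transcription cyclins, 0 were higher and 1 was lower without overlap. As shares of the family's sum, 4 classes were lower without overlap (D cyclins, other kinases, transcription kinases and other cyclins) and 2 higher (cell cycle cyclins and other CDK-binding proteins). No sum or share was tested.

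Other genes of the pathway had no calls either. Of 22 tested CDK partners and regulators, 0 were called in either direction, with 8 log2 fold changes above and 14 below 0 and a median of -0.05. Wee1, the kinase that holds CDK1 inactive, was at 13.4 and 12.1 FPKM in hemicastrated and 15.6 and 15.8 FPKM in control libraries (log2 fold change -0.28, unadjusted p = 0.0364, adjusted p = 0.425, limma). Cyclin Y (Ccny), the partner of Cdk16, was at 10.8 and 11.5 FPKM in hemicastrated and 12.7 and 12.6 FPKM in control libraries. It was lower in both hemicastrated libraries as Cdk16 was, with a log2 fold change of -0.17 (limma adjusted p = 0.644). Of all tested genes 24.8% were lower without overlap. The cyclin Y-like gene Ccnyl1 of the same list overlapped between the groups, with a log2 fold change of -0.02. Ccno, a cyclin of multiciliated cells, was at 1.002 and 0.698 FPKM in hemicastrated and 1.39 and 1.36 FPKM in control libraries (limma adjusted p = 0.484).

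Of 15 tested genes of the retinoblastoma and E2F group, 0 were called (5 positive, 10 negative, median -0.05). The pocket protein gene Rbl2 was at 40.1 and 33.3 FPKM in hemicastrated and 19.9 and 37.4 FPKM in control libraries, with control 1 low and the other 3 together (log2 fold change 0.41, and -0.03 without control 1). Tfdp2, an E2F partner, and E2f6, a repressor, had log2 fold changes of 0.19 and -0.20. Of 17 tested genes of DNA replication and proliferation, 0 were called (10 positive, 7 negative, median 0.05). The replicative helicase gene Mcm3 was at 6.06 and 4.24 FPKM in hemicastrated and 4.25 and 3.24 FPKM in control libraries, thymidylate synthase Tyms at 1.51 and 0.223 FPKM in hemicastrated and 2.23 and 1.32 FPKM in control libraries, and the mitotic kinase Aurkb at 2.98 and 2.67 FPKM in hemicastrated and 3.39 and 3.31 FPKM in control libraries. At an unadjusted p under 0.05 the 3 lists held 1, 0 and 0 genes.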

How the data were processed

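Poly(A) RNA of 4 testes was sequenced, and the deposited table gives FPKM per gene and library, made by the authors, per the file headers. The labels' molecule field names genomic DNA, whereas the protocol describes RNA; the values were treated as RNA. Tools named in the submitters' processing notes, without roles, are Cufflinks 2.2.1 and TopHat2 2.0.11, with the build GRCm38; no source used here gives the annotation. Symbols came from GENCODE M21, which named 21883 of the 22073 identifiers. Genes averaging 1 FPKM or more (11343) were tested with limma 3.58.1 in R 4.3.3 on log2(FPKM + 1), with a variance trend and no covariate, two-sided, with Benjamini-Hochberg adjustment over all of them. The code was tested on simulated data that held known fold changes. Summed FPKM per library ran from 343105 to 353135. Read depth is unknown, so no counting interval is given. Groups came from the labels.

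The members and gene lists were chosen with earlier results of these data known. Values are given for the members with an unadjusted p under 0.05, the 3 highest tested members of each of 11 roles and a fixed set of classical members, and for the leading genes of 3 pathway lists. Library values of Ccnf, Cdk13, Cdk2ap1 and Cdkn2aipnl are given outside this rule, and Ccnyl1 was added beside Ccny. Other members were named by role. Copies were sought with BLAST 2.17.0 among GENCODE transcripts (at least 95% identity over 300 bases), and exonic overlaps were counted on both strands. Alternatives were another pseudocount, other filters, TPM, quantile normalization, other variance settings, the replicate number as a block, and each library left out.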

Additional observations from a re-analysis of the deposited data

How the results depend on the processing

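No member was called under any of the 12 alternatives, in which the smallest adjusted p of a member ran from 0.0903 (replicate block) to 0.476 (without control 2, limma). Over all genes, 135 were called lower and 12 higher; the counts were 63 and 7 among genes averaging 5 FPKM or more, where fewer genes were tested, and 3 were called higher with no filter. Leaving out 1 library gave 78 (without control 2) to 156 lower and 0 (without control 2) to 26 higher genes. The libraries share only a number: deviations of same-numbered libraries from their group means had a correlation of 0.0137, and with the replicate number as a block 30 genes were called higher and 0 members in either direction. The median log2 fold change of the members, 0.003, moved to -0.01 in TPM, 0.048 under quantile normalization and 0.011 among genes averaging 5 FPKM or more, and ran from -0.014 to 0.002 with 1 library left out. Under quantile normalization the median over all genes was 0.017. None of the genes followed below was past the threshold under any alternative. Log2 fold changes near 0 changed sign in TPM for Cdk5 (-0.01) and Cdk1 (-0.0050), and under quantile normalization for Cdk6 (0.01), Ccne1 (0.05), Ccna2 (0.01), Cdk20 (0.01), Cdk8 (0.09), Ccnt1 (0.0029) and Ccnt2 (0.01). With 1 library left out in turn the sign was not kept by 27 of the 59 genes followed (the 50 tested members and 9 pathway genes), with these lowest and highest values: Cdk5rap3 (-0.23 to 0.01), Cdk5 (-0.02 to 0.02), Cdkn1c (-0.17 to 0.46), Cdkn1a (-0.02 to 0.09), Cdkn1b (-0.07 to 0.27), Ccnd3 (-0.19 to 0.01), Cdkn2c (-0.01 to 0.12), Cdkn2d (-0.01 to 0.13), Cdkn2a (-0.10 to 0.33), Cdkn2b (-0.51 to 0.01), Cdk1 (-0.11 to 0.12), Ccna1 (-0.07 to 0.53), Ccnf (-0.11 to 0.20), Ccna2 (-0.24 to 0.07), Cdkn2aip (-0.15 to 0.0043), Cdk2ap1 (-0.16 to 0.37), Cdk20 (-0.10 to 0.06), Cdk14 (-0.55 to 0.62), Cdk18 (-0.08 to 0.32), Cdk19 (-0.14 to 0.03), Cdk9 (-0.20 to 0.02), Cdk8 (-0.15 to 0.15), Ccnh (-0.03 to 0.05), Ccnc (-0.10 to 0.35), Ccnl2 (-0.04 to 0.25), Ccnt1 (-0.12 to 0.0038) and Rbl2 (-0.03 to 0.85). The cause of these changes was not tested. Ccnd2 kept a negative sign under every alternative in which it was tested, from -0.98 to -0.57 with 1 library left out. Only 2 mice per group limit all of this.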
